A study of Rattus norvegicus with 17 samples.

Results

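The 10 genes described here are the microglia identity and complement genes Aif1, Cx3cr1, P2ry12, Tmem119, Csf1r, Trem2, C1qa, C1qb, C1qc and C3, chosen by name from the 34322 genes of the count table. All 10 had counts in all 17 hippocampus libraries and passed the filter on low counts in each comparison. The libraries came from Long-Evans rats aged 36 to 38 days, whose dams were on 1 of 3 diets from gestational day 0 to 20 and on chow afterwards. ET dams (5 offspring, 3 labelled male and 2 female) drank a liquid diet with 6.7% ethanol. PF dams (6 offspring, 3 of each sex) were pair-fed an ethanol-free liquid diet in the amounts eaten by ET dams, and AD dams (6 offspring, 3 of each sex) ate chow ad libitum. Each diet group was 1 litter, so diet and litter cannot be told apart and the p-values measure only the spread between littermates. The left hippocampus was used in 13 rats and the right in 4 (1 ET, 2 PF, 1 AD).

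Microglia are the resident macrophages of the brain. They survey the tissue with mobile processes, depend on CSF1 receptor signaling for survival, and are the main local source of complement C1q. C1q starts the classical complement cascade, which cleaves C3, and products of both can mark synapses that microglia then remove during development of the hippocampus. The comparisons between diets ask whether adolescent offspring exposed to ethanol before birth differ in the levels of these genes.

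The total count per library ranged from 10853947 to 17498392 fragments (median 13538433). Summed over the 10 genes, normalized counts (fragments scaled by edgeR's TMM to the mean effective library size) ran from 3060 to 4201, which was 0.0224% to 0.0318% of all fragments. Choroid plexus RNA set 3 libraries apart: 12 marker genes of that tissue summed to 130486 to 152470 in ET replicate 2, the PF animal 11f6 and AD replicate 4, and to 2855 to 23775 in the other 14. Of the 30 values of the 10 genes in these 3 libraries, 22 lay inside the range of the other samples on the same diet, 5 lay below it and 3 above. Sex-linked genes went against the sex labels of AD replicates 1 and 2, so sexes were compared only in ET and PF. A pineal list summed to 13818 in AD replicate 6 and to at most 111 in every other library. A list of 16 genes for macrophages of the brain borders summed to 389 to 841 in ET, 394 to 613 in PF and 286 to 589 in AD, with no gene of the list at 0 throughout. That list also holds genes not confined to these cells, such as S100a8, Ccr2 and Cd74. The 8 neuron genes summed to 61244 to 76929 in every library. Prox1 of dentate granule cells, 1 of the 8, ran from 110 to 683 by itself, which the sum does not show. The further microglia genes (35 of 36 listed were in the counts) summed to 7398 to 9685. In bulk tissue, fewer microglia and less RNA per microglial cell cannot be told apart.

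Promoters of 6 of the 10 genes were present in the RefSeq sequences for the rat assembly GRCr8, covering 250 bases before to 50 after the gene start. Those of C1qa and C1qb, the pair with the highest Pearson's r, and of C3, the gene with the largest difference between diets, are shown 5′ to 3′ on the gene's strand. Capitals mark the letters GAGGAA or their reverse complement TTCCTC, a core of the sites bound by PU.1, the transcription factor of the macrophage lineage.
C1qa, chr5:154419884-154420183, minus strand: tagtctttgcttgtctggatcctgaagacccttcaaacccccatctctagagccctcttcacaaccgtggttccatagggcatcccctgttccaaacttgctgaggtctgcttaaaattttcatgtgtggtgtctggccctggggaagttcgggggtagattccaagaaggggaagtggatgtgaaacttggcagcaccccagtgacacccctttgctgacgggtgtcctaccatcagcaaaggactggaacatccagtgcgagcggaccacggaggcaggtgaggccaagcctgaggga
C1qb, chr5:154407778-154408077, minus strand: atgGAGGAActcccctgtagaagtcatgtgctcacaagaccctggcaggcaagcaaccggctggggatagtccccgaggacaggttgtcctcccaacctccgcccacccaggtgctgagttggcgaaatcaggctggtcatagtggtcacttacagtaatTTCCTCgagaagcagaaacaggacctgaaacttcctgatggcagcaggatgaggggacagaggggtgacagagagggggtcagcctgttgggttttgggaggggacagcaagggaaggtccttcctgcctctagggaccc
C3, chr9:2201290-2201589, minus strand: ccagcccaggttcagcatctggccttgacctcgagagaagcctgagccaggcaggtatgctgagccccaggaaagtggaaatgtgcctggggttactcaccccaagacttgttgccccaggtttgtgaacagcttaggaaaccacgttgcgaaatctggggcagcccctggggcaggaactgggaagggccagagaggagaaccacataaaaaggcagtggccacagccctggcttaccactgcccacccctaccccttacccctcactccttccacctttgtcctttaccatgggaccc
The letters were searched on both strands, and 27.6% of the 33469 RefSeq promoters of this length held them at least once. Among the 6 genes they were found in 3: at 229 and 95 bases before the gene start in Csf1r, at 247 and 90 bases in C1qb, and at 29 bases in Trem2. They were not found in the windows of C1qa, C3 and Cx3cr1. C1qb, C1qc and C1qa lie next to each other in that order on chromosome 5. Of the others, Trem2 and C3 are on chromosome 9, Cx3cr1 on 8, P2ry12 on 2, Tmem119 on 12, Csf1r on 18 and Aif1 on 20.

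None of the 10 genes was called different between ET and PF. A call needed a Benjamini-Hochberg adjusted p under 0.01 over all genes tested and an absolute log2 fold change above 1.5 in edgeR's quasi-likelihood test, a rule that called 2.18% of all genes in this comparison (350 of 16088). DESeq2 also called 0. At an unadjusted p under 0.05, 3 of the 10 genes were higher in ET and 0 lower (C3, P2ry12 and C1qa), where 14.4% of all genes passed that threshold (6.02% higher and 8.34% lower). The median log2 fold change of the 10 genes was 0.16, beside 0.0093 for all genes.

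Between ET and AD, 0 of 10 genes were called by edgeR or DESeq2, beside 0.0127% of all genes (2 of 15700). At an unadjusted p under 0.05, 2 genes were higher in ET (P2ry12 and Trem2), beside 4.57% of all genes (2.34% higher and 2.23% lower). The median log2 fold change was 0.17, and 0.0016 over all genes. PF against AD likewise gave no call: 0 of 10 genes were called by either tool, where edgeR called 2.02% of all genes (321 of 15902). Trem2 and Csf1r were higher and Tmem119 lower in PF at an unadjusted p under 0.05, a threshold passed by 17.3% of all genes (9.62% higher and 7.66% lower). The groups overlapped for all 10 genes in each of the 3 comparisons. Non-overlapping groups were found for 5.33% of all genes between ET and PF, 0.599% between ET and AD, and 4.87% between PF and AD.

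**Figure D1:**
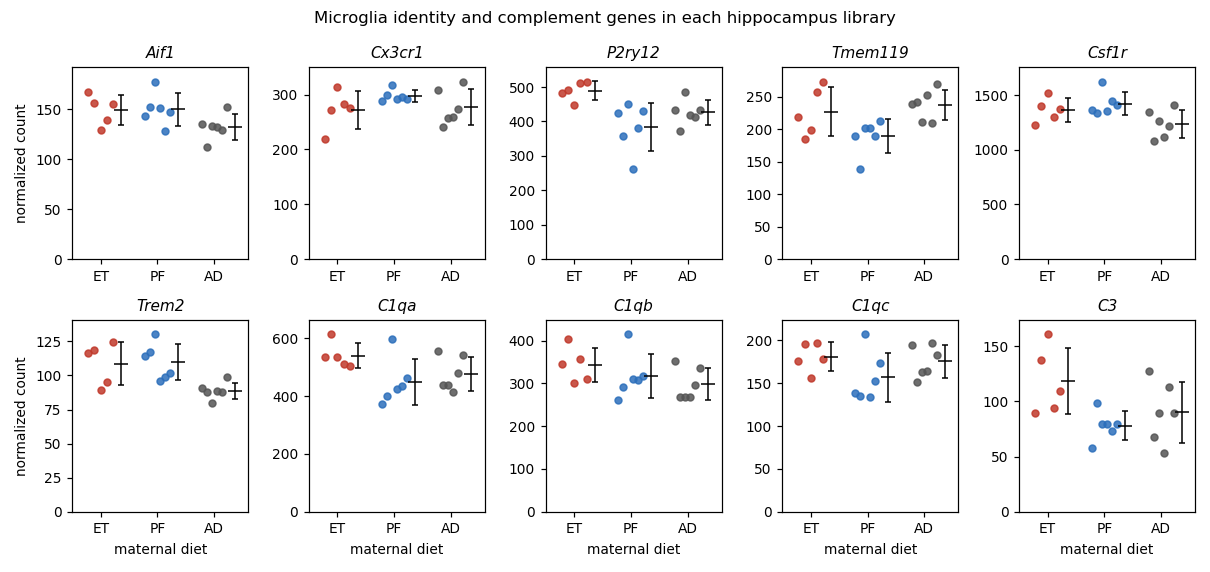
Normalized counts (vertical axis, from 0) of the 10 genes in each library by maternal diet (ET n = 5, PF n = 6, AD n = 6). Points are libraries and the bar beside them is the mean ± SD; the 3 groups overlap in every panel, and C3 has the widest spread, from 52.8 to 161.

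Aif1 encodes Iba1, the actin-binding protein most often stained to show microglia. Its counts in ET replicates 1 to 5 were 167, 156, 129.7, 139 and 156. PF libraries ran from 128 to 178 (median 149) and AD libraries from 112 to 152 (median 133). AD values lay toward the low end of the shared range, and the ET and PF ranges nearly coincided. The log2 fold change was -0.0026 for ET against PF (95% interval -0.20 to 0.19), 0.17 for ET against AD (-0.02 to 0.37) and 0.18 for PF against AD (-0.0037 to 0.35).

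Tmem119 encodes a membrane protein used to tell microglia from other macrophages. It had 219, 185, 199, 258 and 273 counts in ET replicates 1 to 5. The PF range was 139 to 213 (median 196) and the AD range 210.3 to 270.0 (median 240.4). PF and AD touched only at their edges, since PF replicate 6 (213) was the single PF library above the lowest AD library. The log2 fold change of PF against AD was -0.33 (SE 0.10, interval -0.54 to -0.12, edgeR adjusted p = 0.073), and DESeq2 gave an adjusted p of 0.035. Without the 3 choroid-rich libraries, of which PF animal 11f6 had the lowest count (139), PF against AD gave -0.23 (edgeR adjusted p = 0.13). ET against PF gave 0.26 (SE 0.12, edgeR adjusted p = 0.35), and ET against AD gave -0.07 (interval -0.31 to 0.17; from -0.15 without ET replicate 5 to -0.0099 without ET replicate 2).

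P2ry12 encodes the ADP receptor that steers microglial processes toward damaged cells. ET replicates 1 to 5 had 482, 492, 447, 511 and 516 counts. PF libraries ranged from 263 to 450.1 (median 402) and AD libraries from 371 to 486 (median 426). ET replicate 3 alone fell below the highest PF library, while the lowest PF value was PF replicate 2. ET was higher by a log2 fold change of 0.35 against PF (SE 0.12, interval 0.10 to 0.60, edgeR adjusted p = 0.13) and by 0.20 against AD (SE 0.07, interval 0.05 to 0.35, edgeR adjusted p = 0.94). Neither passed the adjusted threshold. The gene Med12l overlaps P2ry12 in the GRCr8 gene list; its log2 fold change was -0.17 for ET against PF and -0.09 for ET against AD, with edgeR adjusted p of 0.67 and 1.00.

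Cx3cr1 encodes the receptor for fractalkine, the ligand that neurons make from Cx3cl1. Its ET counts were 218, 272, 314, 283 and 275. PF libraries held a narrow band from 288 to 318 (median 294) and AD libraries ran from 241 to 324 (median 267). The PF band lay inside the AD range and overlapped ET through replicate 3 only. The PF coefficient of variation was 3.58%, compared with 12.7% in ET and 11.6% in AD, and the log2 fold changes were -0.13 for ET against PF, -0.03 for ET against AD and 0.10 for PF against AD. The first became -0.059 without ET replicate 1, and the last ran from 0.064 without AD replicate 2 to 0.15 without AD replicate 6. Cx3cl1 itself had a log2 fold change of 0.10, -0.11 and -0.20 in the same comparisons, and the last had an edgeR adjusted p of 0.27.

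Csf1r encodes the receptor for CSF1 and IL-34 on which microglial survival depends. Counts in ET were 1226, 1397, 1519, 1301 and 1374. PF ran from 1337 to 1625 (median 1385) and AD from 1079 to 1414 (median 1242). AD libraries were mostly lower, with AD replicates 1 and 6 inside the PF range. The log2 fold change was 0.19 for PF against AD (SE 0.07, interval 0.04 to 0.34, edgeR adjusted p = 0.15), -0.06 for ET against PF and 0.13 for ET against AD. The ET against PF value ran from -0.10 without ET replicate 3 to -0.022 without PF replicate 1.

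Trem2 encodes a lipid receptor that binds apolipoprotein E and signals through the adaptor Tyrobp. ET counts were 116, 119, 89.1, 94.9 and 124. PF counts ran from 96.1 to 130.2 (median 108) and AD counts from 80.1 to 98.6 (median 88.2). AD had the narrowest range, and 2 ET libraries (replicates 3 and 4) fell within it. PF was higher than AD by a log2 fold change of 0.30 (SE 0.08, interval 0.12 to 0.47, edgeR adjusted p = 0.052), which missed the threshold, and ET was higher than AD by 0.28 (SE 0.10, interval 0.07 to 0.50, edgeR adjusted p = 0.95). ET against PF gave a log2 fold change of -0.01 (interval -0.26 to 0.24). Without the 3 choroid-rich libraries PF against AD gave 0.28 (edgeR adjusted p = 0.16).

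C1qa, C1qb and C1qc encode the 3 chains of C1q. C1qa counts in ET were 535, 614, 534, 513 and 505. In PF they ranged from 375 to 597 (median 430.0) and in AD from 413 to 556 (median 460.4). The 5 ET libraries stood above all PF libraries except replicate 1. ET against PF gave a log2 fold change of 0.27 (SE 0.11, interval 0.03 to 0.50, edgeR adjusted p = 0.26), which moved to 0.18 (edgeR adjusted p = 0.65) without the 3 choroid-rich libraries and to 0.36 (edgeR adjusted p = 0.016) without PF replicate 1. C1qb had 345, 403, 302, 357 and 311 counts in ET, while PF libraries held 261 to 415 (median 310.3) and AD libraries 268 to 352 (median 283). C1qc had 176, 196, 156, 197 and 179 counts in ET, while PF libraries held 134 to 207 (median 146) and AD libraries 151 to 197 (median 173). For both of these chains the ranges of the 3 groups overlapped, and ET against PF gave log2 fold changes of 0.11 (interval -0.13 to 0.36) for C1qb and 0.21 (interval -0.05 to 0.46) for C1qc. The C1qb value became 0.026 without the 3 choroid-rich libraries, 0.049 without ET replicate 2, 0.061 without PF animal 11f5 and 0.20 without PF replicate 1, and the C1qc value became 0.14 without the choroid-rich libraries.

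C3 encodes the component on which all complement pathways converge, and it had the largest difference and the widest spread of the 10 genes. ET counts were 89.5, 137, 161, 94.3 and 109.7. PF counts ran from 58.1 to 98.2 (median 79.4) and AD counts from 52.8 to 127 (median 89.6). ET replicates 2, 3 and 5 exceeded every PF library, and ET replicates 1 and 4 fell below the highest PF value, that of animal 11f6. The log2 fold change of ET against PF was 0.60 (SE 0.17, interval 0.23 to 0.96, edgeR adjusted p = 0.065), a 1.51-fold difference with an interval from 1.18-fold to 1.95-fold. DESeq2 gave an adjusted p of 0.028 with a log2 fold change of 0.60, still short of both limits of a call. Leaving out the 3 choroid-rich libraries gave 0.62 (edgeR adjusted p = 0.11). ET against AD gave 0.39 (interval -0.09 to 0.87) and PF against AD -0.21 (interval -0.62 to 0.20). The latter became -0.39 (edgeR adjusted p = 0.26) without the choroid-rich libraries, and ET against AD became 0.23. ET against AD was 0.25 without ET replicate 3, and PF against AD was -0.082 without AD replicate 1 and -0.13 without AD replicate 5 or without PF animal 11f5. The coefficient of variation of C3 over the 17 libraries was 30.1%, and that of the other 9 genes ran from 9.89% to 16.0%.

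**Figure D2:**
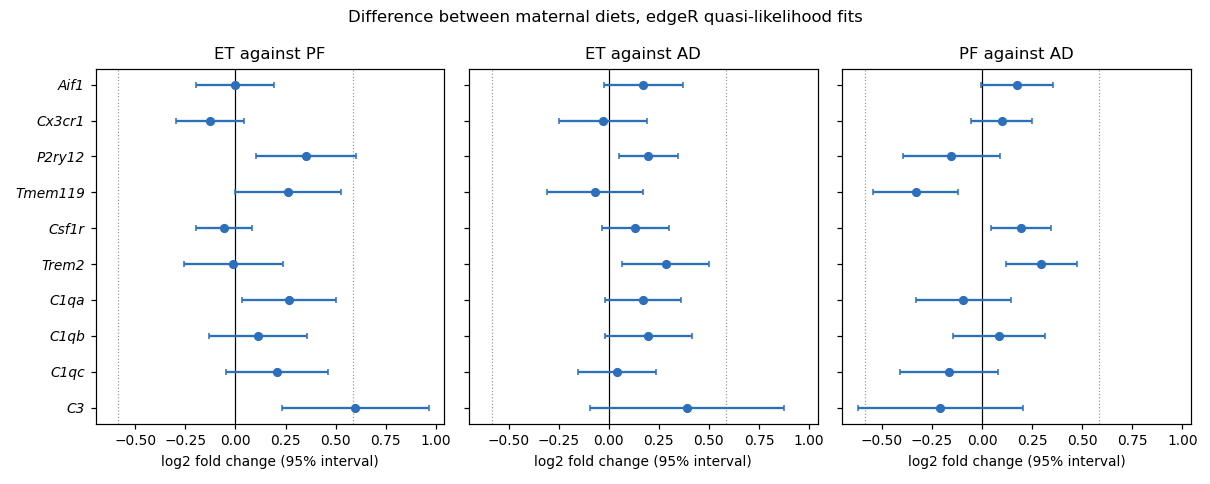
Log2 fold changes (points) with 95% intervals (bars) of the 10 genes for ET against PF, ET against AD and PF against AD. The dotted lines mark a 1.5-fold difference either way; the intervals of C3 cross a dotted line in every panel, and for ET against PF that of P2ry12 does too.

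The intervals, which are for 1 gene at a time and not adjusted for 10 genes, show what these libraries could resolve. Between ET and PF, the interval lay within 1.5-fold in both directions for 8 of the 10 genes, compared with 78.9% of all genes. The corresponding counts were 9 of 10 between ET and AD (85.3% of all genes) and 9 of 10 between PF and AD (83.6%). C3 was outside in each comparison. No such limit can be drawn for differences between litters on the same diet, since there was 1 litter per diet.

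Neither sex nor hemisphere gave a call. Males against females, in ET and PF with diet as a term, gave 0 of 10 genes called and 0 at an unadjusted p under 0.05, beside 0.0359% and 1.9% of all genes; DESeq2 called 0 as well. The log2 fold changes ran from -0.13 (C1qa) to 0.13 (P2ry12). For the difference between sexes in the diet effect, 0 of 10 genes and 0% of all genes were called by edgeR, with 0 of 10 and 1.53% at an unadjusted p under 0.05, and DESeq2 called 0. The estimate furthest from 0 was 0.38 for C1qb (SE 0.21, interval -0.09 to 0.85). Right against left, with diet as a term over all 17 libraries, gave 0 of 10 genes and 0% of all genes called by edgeR and 0 of 10 by DESeq2. P2ry12 alone had an unadjusted p under 0.05 (log2 fold change 0.20, interval 0.01 to 0.40), beside 4.9% of all genes. The C1q genes had similar estimates, higher on the right by 0.19 (C1qa, interval -0.0040 to 0.39), 0.18 (C1qb, interval -0.03 to 0.39) and 0.21 (C1qc, interval -0.0018 to 0.41). Both libraries that were highest for C1qa within their diet in ET and PF, ET replicate 2 and PF replicate 1, were right hippocampi, while AD replicate 3, the AD right hippocampus, had 439.5 C1qa counts, in the lower part of the AD range. With hemisphere as a term, C1qa in ET against PF had a log2 fold change of 0.32 (edgeR adjusted p = 0.027); the part of hemisphere in the C1q levels was not otherwise tested.

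The C1q genes moved together from library to library. Over the 17 libraries, on log2(CPM + 1), Pearson's r was 0.87 for C1qa and C1qb (Spearman's rho 0.81), 0.81 for C1qa and C1qc (rho 0.78) and 0.71 for C1qb and C1qc (rho 0.68). Permutation p-values for these r were 2e-05, 0.00016 and 0.00184, and after Benjamini-Hochberg adjustment over 45 pairs 0.0009, 0.0024 and 0.0138; for rho they were 0.00016, 0.00035 and 0.00358, or 0.0036, 0.00525 and 0.0322 adjusted. Leaving out the 2 libraries farthest from the median of the first gene gave 0.80, 0.77 and 0.60. With each value taken as a deviation from its diet mean, r was 0.93, 0.80 and 0.83, and within PF alone and AD alone C1qa and C1qb had r = 0.99 and 0.98 (n = 6 each, no test). Each library held 1.37 to 1.77 C1qa fragments for every C1qb fragment, not corrected for transcript length. That ratio was 1.37 to 1.46 in PF and 1.53 to 1.64 in AD, which did not overlap, and 1.44 to 1.77 in ET. Among all pairs of the 12823 genes with a mean normalized count of at least 50 and no library at 0, 3.86% had ratios that did not overlap between PF and AD.

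Of the 45 pairs among the 10 genes, 39 had a positive r (median 0.28) and 8 had an adjusted permutation p under 0.05, all 8 with r of at least 0.63. Among all pairs of the same 12823 genes, 50.1% had a positive r and 4.15% an r of at least 0.63. The 45 pairs share 10 genes and are not independent of each other. Among the 8 were Aif1 and C1qb, P2ry12 and C1qc, and C1qa and C3. For these the adjusted permutation p of rho was 0.071, 0.060 and 0.082. Their r was 0.42, 0.46 and 0.49 without the 2 farthest libraries. The highest r outside C1q was 0.81 for Aif1 and Trem2 (permutation p = 0.0001, adjusted p = 0.00225; rho 0.83, permutation p = 0.0001, adjusted p = 0.0036), 0.78 without the 2 farthest libraries and 0.72 on deviations from the diet means. Cx3cr1 and Csf1r had r = 0.76 (permutation p = 0.0004, adjusted p = 0.0045; rho 0.76, permutation p = 0.00072, adjusted p = 0.0081), 0.75 without the 2 farthest libraries and 0.83 on deviations. The lowest r was -0.29, for Tmem119 and Csf1r (permutation p = 0.26, adjusted p = 0.48; rho -0.31, permutation p = 0.22, adjusted p = 0.42), and it was 0.07 on deviations and -0.46 without the 2 farthest libraries. Within-library ratios of member pairs did not overlap between PF and AD for 9 of 45 pairs, between ET and PF for 1 (Cx3cr1 over C3), and between ET and AD for 0, beside 3.86%, 3.99% and 0.544% of all pairs of the 12823 genes. Tmem119 over Trem2 was among the 9, at 1.19 to 2.10 in PF (median 1.80), with every AD library above that range (median 2.69).

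**Figure D3:**
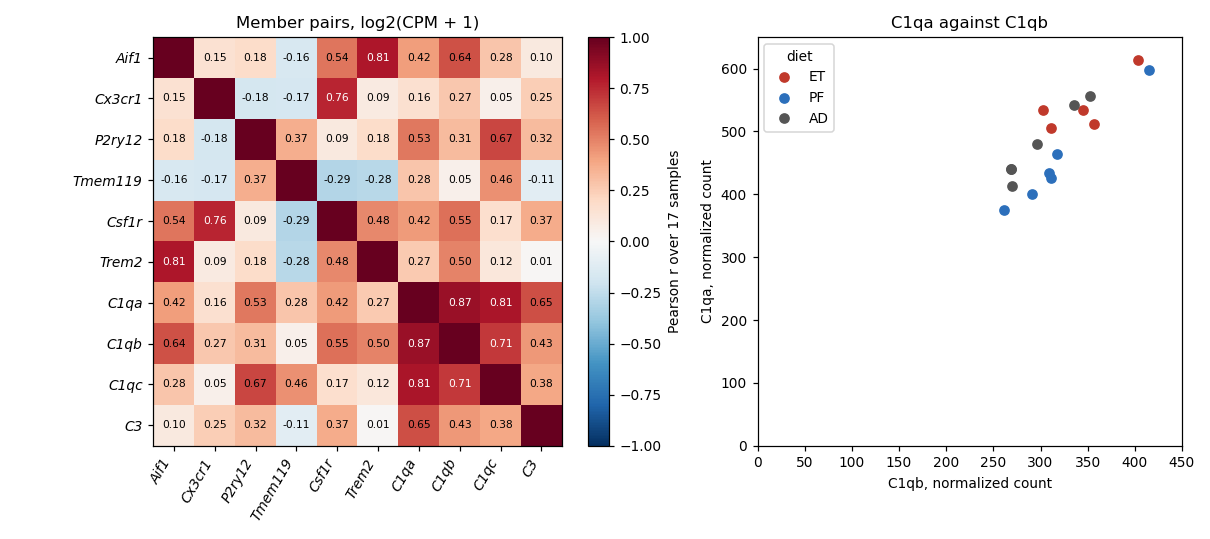
Left, Pearson's r of log2(CPM + 1) over 17 libraries for each pair of the 10 genes (color scale -1 to 1). Right, normalized counts of C1qa against C1qb with 1 point per library, colored by diet; r is 0.87, and at a like C1qb count the AD points lie above the PF points.

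PF replicate 1 had the highest PF value for 8 of the 10 genes and the highest sum of all libraries (4201). AD replicate 6 was the highest AD library for 5 genes and AD replicate 2 the lowest for 6. The sums of the 10 genes had medians of 3822 in ET, 3430 in PF and 3408 in AD and ranges of 3574 to 3971, 3316 to 4201 and 3060 to 3842, so the group ranges shared the stretch from 3574 to 3842.

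The genes whose levels followed the 10 most closely were taken from 12835 other genes with a mean normalized count of at least 50, by Pearson's r with the mean z-score of the 10 over the 17 libraries. They were Anxa3 (r = 0.89), Tmem176b (0.84), Pld4 (0.83), Laptm5 (0.82), Dock8 (0.79), Ctss (0.79), LOC498368 (0.75), Tifa (0.75), P2ry13 (0.75) and Ifngr1 (0.74). Laptm5, Ctss and P2ry13 were on the list of 36 further microglia genes. The 23 genes of that list with enough counts had a median r of 0.54, compared with -0.0095 for all candidates. These r describe a ranking over libraries of 3 litters, with no test.

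Ligands, adaptors and co-receptors of the 10 genes gave 0 calls among 12 tested, in any of the 3 comparisons. Tyrobp, the Trem2 adaptor, had mean counts of 81.2 ± 10.1 (SD, n = 5) in ET, 68.7 ± 10.8 (n = 6) in PF and 64.7 ± 7.29 (n = 6) in AD, with a log2 fold change of 0.32 for ET against AD (SE 0.11, edgeR adjusted p = 0.94). Apoe, the lipoprotein that Trem2 binds, had log2 fold changes of 0.05, -0.03 and -0.08 for ET against PF, ET against AD and PF against AD. Tgfbr1, a receptor for the TGF-beta that maintains microglial identity, gave 0.04, 0.07 and 0.03. Itgb2, a chain of the complement receptor for cleaved C3, gave 0.21, -0.04 and -0.25. All of these missed an adjusted p under 0.05.

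Among 31 other complement genes tested of 46 listed, 0 were called in any comparison. C2, the protease of the C3 convertase, had the only adjusted p under 0.05, at a log2 fold change of 0.46 for PF against AD (SE 0.13, edgeR adjusted p = 0.046; mean 163 ± 28.8 in PF and 118 ± 18.8 in AD, SD, n = 6 each). That 1 of 31 stands beside 4.96% of all genes higher in PF at that threshold. C1s, a protease of the C1 complex, was higher in ET by 0.39 against PF (edgeR adjusted p = 0.19) and by 0.38 against AD (edgeR adjusted p = 1.00). Clu and Cd59, inhibitors of the terminal complex and the most highly counted of the list with Susd4, had log2 fold changes for ET against PF of 0.19 and 0.09. C8g, of the terminal complex, gave -0.34 (edgeR adjusted p = 0.16). C4b, C5, C6, C9 and Cfi were among the 15 that did not pass the filter on low counts, and Vsig4 was at 0 in all 17 libraries.

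Of the 36 further microglia genes, 34 were tested. Between ET and PF, edgeR called 0, and 1 was higher and 3 lower in ET at an adjusted p under 0.05, beside 1.25% and 4.21% of all genes. Between ET and AD the counts were 0, 0 and 0, beside 0.0127% and 0.0255%. Between PF and AD 1 was called higher in PF (Hpgds), and 4 were higher and 0 lower at an adjusted p under 0.05, beside 4.96% and 1.24%.

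Hpgds, the hematopoietic prostaglandin D synthase, had the largest difference. ET counts were 28.5, 29.0, 22.9, 28.7 and 26.8, PF counts 68.9 to 83.3 (median 75.2) and AD counts 18.3 to 27.8 (median 24.2). PF lay apart from both other diets. The log2 fold change was 1.66 for PF against AD (SE 0.11, edgeR adjusted p = 7.2e-08) and -1.47 for ET against PF (SE 0.10, edgeR adjusted p = 3.5e-07), the latter below the fold limit of a call. Vsir, an inhibitory immune receptor, had 269.8 to 292 counts in ET, 329 to 395 in PF and 227 to 326 in AD, with log2 fold changes of -0.34 for ET against PF (edgeR adjusted p = 0.0018) and 0.35 for PF against AD (edgeR adjusted p = 0.018). PF was the higher group for both genes, without overlap.

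Both genes overlap other genes in the GRCr8 gene list, Hpgds with Smarcad1 and LOC134486776 and Vsir with Cdh23. Cdh23 had 103 to 123 counts in PF, 31.2 to 52.8 in ET and 30.2 to 54.7 in AD, with log2 fold changes of -1.49 for ET against PF and 1.63 for PF against AD (edgeR adjusted p = 2.5e-06 and 7.5e-07). Smarcad1 gave -0.24 and 0.21 (edgeR adjusted p = 0.19 and 0.083). Of the genes called between ET and PF that matched the list by symbol, 89.1% (221 of 248) overlapped another gene, compared with 45.5% of the matched genes tested (6689 of 14686). Between PF and AD the shares were 88.1% and 45.5%. Gpr34 and C2, described with their lists, also overlap another listed gene, and Cd163, Tlr2 and Gpnmb do not. The authors allowed a read to count for more than 1 feature, and the strand setting is not given in the sources used here; the part of overlap in these differences was not tested. Among the 10 genes, only P2ry12 (with Med12l) and Cx3cr1 (with LOC134480114) overlap another listed gene.

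**Figure D4:**
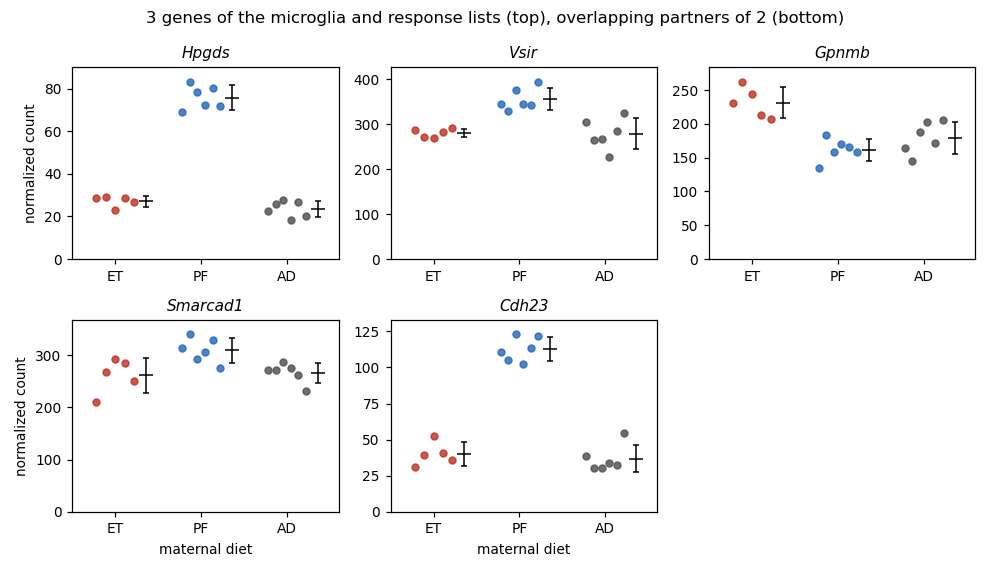
Normalized counts (vertical axis, from 0) by diet of 3 genes from the microglia and response lists (top) and of a gene that overlaps Hpgds and one that overlaps Vsir (bottom, in that order). Points are libraries and bars the mean ± SD; PF lies apart for Hpgds, Vsir and Cdh23, and ET lies above PF for Gpnmb, which overlaps no listed gene.

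Tlr2, a receptor for bacterial lipoproteins, was the 1 microglia list gene higher in ET than PF at an adjusted p under 0.05. It had 77.3 ± 4.62 counts in ET (SD, n = 5), 58.4 ± 7.96 in PF (n = 6) and 53.7 ± 8.63 in AD (n = 6), with log2 fold changes of 0.40 (edgeR adjusted p = 0.031) and 0.52 for ET against AD (edgeR adjusted p = 0.38). Gpr34, a lysophospholipid receptor of microglia, was higher in PF than AD by 0.30 (edgeR adjusted p = 0.045). Ctss and Lgmn, lysosomal proteases and among the most highly counted genes of the list, had log2 fold changes between -0.08 and 0.14 in the 3 comparisons.

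Of 27 genes that microglia raise in response to damage or inflammation, 15 were tested and 0 were called in any comparison. Gpnmb, a glycoprotein of phagocytic cells, was the 1 with an adjusted p under 0.05 (higher in ET than PF, as were 1.25% of all genes). Its counts were 231, 263, 244, 213 and 208 in ET. PF libraries ran from 134 to 183 (median 163) and AD libraries from 146 to 206 (median 179.7). All ET libraries were above all PF and AD libraries. The log2 fold change was 0.52 for ET against PF (edgeR adjusted p = 0.0027) and 0.37 for ET against AD (edgeR adjusted p = 0.72). Cd9 and Ctsz gave 0.37 and 0.36 for ET against PF (edgeR adjusted p = 0.057 and 0.18), and Ctsb and Ctsd 0.05 and 0.12. The cytokine genes Il1b, Tnf, Il6 and Ccl2 had at most 6.45 normalized counts in any library and were not tested.

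Markers of other cells moved with some of these differences. Between ET and PF, 4 of 7 oligodendrocyte genes were higher in ET at an adjusted p under 0.05 (edgeR), beside 1.25% of all genes. The 7 summed to 278844 to 358387 in ET, 203731 to 279321 in PF and 237944 to 335748 in AD. Between PF and AD, 6 of the 7 had negative log2 fold changes in PF (median -0.27). Of these, 5 passed at an unadjusted and 1 at an adjusted p under 0.05 (edgeR), beside 7.66% and 1.24% of all genes lower. The 5 hemoglobin and red cell genes summed to 9685 to 17512 in ET, 4227 to 12837 in PF and 7288 to 13892 in AD. All 5 were higher in ET than PF at an unadjusted p under 0.05 (edgeR), beside 6.02% of all genes. At an adjusted p under 0.05 there were 0. All 5 were also lower in PF than AD in sign (median -0.50), 3 of them at an unadjusted p under 0.05, beside 7.66% of all genes. The 7 thalamus genes summed to 1091 to 2439 in ET, 747 to 2088 in PF and 914 to 1344 in AD. All 6 tested against PF had positive log2 fold changes in ET (median 0.49), as did all 7 against AD (median 0.53). At an unadjusted p under 0.05 (edgeR) 2 and 3 passed, beside 6.02% and 2.34% of all genes higher, and 0 at an adjusted p under 0.05. Of the border macrophage list, all 9 genes tested between ET and AD had positive log2 fold changes in ET (median 0.36). At an unadjusted p under 0.05 (edgeR) 1 passed, beside 2.34% of all genes higher, and 0 at an adjusted p under 0.05. Between ET and PF 5 of 10 were positive (median 0.04). The part of these lists in the values of the 10 genes, Tlr2 and Gpnmb was not tested. Cd163, a marker of border macrophages, was higher in PF than AD by a log2 fold change of 0.75 (edgeR adjusted p = 0.030; mean 39.0 ± 9.64 and 22.9 ± 4.97), and Lyve1 and Stab1 of the same list did not pass. That 1 of 9 tested stands beside 4.96% of all genes higher in PF at an adjusted p under 0.05. Between ET and PF, 0 of 8 neuron and 0 of 6 endothelial genes had an adjusted p under 0.05 (edgeR). At that threshold 1 of 7 astrocyte genes was higher in ET, beside 1.25% of all genes.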

How the data were processed

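RNA-seq was done on stranded mRNA libraries from 17 rat hippocampi, each sequenced in 3 technical replicates. The authors mapped reads to mRatBN7.2 with Bowtie2 2.4.2, which does not split reads across introns, and counted fragments per gene with featureCounts 2.0.1, with a mapping quality of at least 10 and fragments allowed to count for several genes. The values they deposited are estimated counts, averages over the 3 technical replicates, so 53.3% were whole (within 0.001). Diet, sex and side came from the labels; 2 PF columns, animals 11f5 and 11f6, could not be tied to a replicate number.

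Counts were rounded and tested in edgeR 4.0.16 (filterByExpr, TMM, quasi-likelihood) under R 4.3.3, with each comparison fitted on its own groups across all genes; DESeq2 1.42.0 was an alternative. The SE is the absolute log2 fold change over the root of F, and intervals are 95%. A call followed the limits in the paper's Results. The paper's Methods give a fold change, not a log2 fold change, above 1.5 at the same adjusted p. Under that rule 0 of the 10 genes were called in each diet comparison. Permutation tests used 100000 two-sided resamples. Precision is limited by 5 or 6 littermates per diet and by counts of 47.0 (C3) to 1735 (Csf1r) fragments per library for the 10 genes; intervals cover the spread between those rats. All 17 samples were used; the 14 of the authors' final analysis were an alternative. Same-numbered samples did not all deviate together, so numbers were not treated as pairs. No pair of libraries from the same diet was alike within sampling noise. Scripts were tested on simulated data. Gene overlaps and promoters came from RefSeq GRCr8, another assembly than the counts, matched by symbol (27228 of 34322). The 10 genes and the gene lists were chosen with earlier results of these data known. Genes named from a list were those called in a diet comparison, otherwise the 3 with the smallest p and the 3 with the highest mean; Gpr34, Med12l, the overlap partners and the member ratios were chosen after values were seen. Of the microglia list, 1 gene is counted in the totals but not reported here.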

Additional observations from a re-analysis of the deposited data

Results flagged for a closer look

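In each diet group of 5 or 6 libraries, the highest and lowest value of each of the 10 genes was compared with its nearest neighbor by Dixon's test, and 4 of the 30 groups had a library far from the others, where chance alone gives about 1 in 20. Tmem119 was 139 in the PF animal 11f6, below the next PF library at 189.9. Csf1r was 1625 in PF replicate 1, above the next at 1443. C1qb was 415 in the same library, above the next at 317. C1qa was 614 in ET replicate 2, above the next at 535. The PF animal 11f6 and ET replicate 2 are among the 3 libraries rich in choroid plexus RNA, and PF replicate 1 had the highest PF value for 8 of the 10 genes.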

How the results depend on the processing

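None of the 10 genes was called under any of the 124 other settings tried, which covered another scaling, DESeq2, no filter on low counts, summed technical replicates, the 14 samples of the authors' final analysis, sex or hemisphere as a term, 1 fit of all diets, looser thresholds in the fits of all libraries, the replicate block and leaving out each library. The looser thresholds were applied to the main edgeR fits only. In the diet comparisons the largest log2 fold change of the 10 genes in any setting was 0.70 (C3, ET against PF). Where a call needed a value above 1.5, the count there was thus 0 whatever the p-values. Sex as a term was not run for comparisons with AD, whose sex labels are in doubt. Leaving out the 2 AD libraries in question was chosen after seeing the data. Of 610 log2 fold changes of single genes, 591 kept their sign and 19 reversed, none above 0.0537 in size. For ET against PF, Aif1 became 0.0016 with summed replicates, 0.00020 with sex and 0.018 with hemisphere as a term, and ran from -0.049 to 0.049 on leaving out 1 library; Trem2 became 0.0073 with hemisphere and 0.0068 without PF animal 11f6, and ran from -0.066 to 0.054. For ET against AD in the 14 samples, Tmem119 became 0.014 and C1qc -0.0058; C1qc ran from -0.0032 to 0.089 and Cx3cr1 from -0.086 to 0.042 on leaving out 1 library. C1qb in PF against AD ran from -0.00073 (without PF replicate 1) to 0.13 on leaving out a numbered library, and was 0.14 without animal 11f5. An adjusted p under 0.05, without the fold limit, appeared 12 times in 10 of these fits, for 1 gene in 8 fits and for 2 genes in 2: C3 in ET against PF (4, from 0.028 with DESeq2 to 0.047 without ET replicate 4; over all settings up to 0.27), C1qa in ET against PF (2, from 0.016), Trem2 (3, from 0.035), Tmem119 (2, from 0.035) and Csf1r (1, 0.046 without AD replicate 6) in PF against AD; the cause was not tested. In the 4 C3 fits the log2 fold change was 0.60 to 0.68, above 1.5-fold. Same-numbered samples correlated at 0.24 on average between ET and PF (3 pairs, from -0.08 to 0.69, beside -0.04 for other pairs). The averages were -0.12 between ET and AD and 0.08 between PF and AD. So few pairs cannot settle whether the numbers pair the samples. With the replicate block, over the libraries whose number is known, 0 genes were called in each comparison. With that block Cx3cr1 in ET against AD became 0.019, Tmem119, C1qb and C1qc in ET against PF became 0.022, 0.024 and 0.11, and C1qa, C1qb and C1qc in PF against AD became -0.040, 0.15 and -0.056. The count of member pairs with an adjusted permutation p under 0.05 was 5 in the 14 samples and 6 on deviations from diet means, where 8 were found in all 17, and r of Tmem119 and Csf1r became 0.065 on deviations.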
